A study of Homo sapiens with 6 samples.

Results

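The genes described here are 34 well-known transcriptional targets of the tumour suppressor p53, measured in HCT116 cells, a human colorectal cancer line of epithelial origin. They were chosen by symbol from what is known of p53, but with earlier results of these data known. They are 34 of the 19871 gene symbols in the deposited mRNA tables. LncRNA-sequencing libraries were made from 3 groups with 2 libraries each, 6 in all: a negative control (NC), cells transfected with a plasmid for the long non-coding RNA GAS5 (GAS5) and cells transfected with siRNA against the Hippo pathway coactivator YAP (siYAP). All groups are the same cell line, and the labels list NC, GAS5 and siYAP under one siRNA tag. What the NC cells received, which YAP siRNA was used and how long after transfection the RNA was taken are not given in the sources used here, so the effect of GAS5 RNA and that of plasmid transfection cannot be told apart. The deposited values are the authors' group means, 1 value per gene and group, so there is no spread between replicates, no test and no p-value below. Differences are given as the log2 ratio of counts that were summed by gene, scaled to NC by the TMM method and raised by a prior count of 2. The 95% counting interval beside a ratio treats each group mean of estimated counts as 1 count. It covers counting error only, not the spread between cultures. Both comparisons use the same NC values, so they are set side by side and their likeness is not used as a result.

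p53 is a transcription factor that is stabilised by DNA damage and other stresses. It binds a response element built of a pair of adjacent half-sites and switches on genes for cell cycle arrest, apoptosis, DNA repair and metabolic control. It also switches on MDM2, the ubiquitin ligase that marks p53 for destruction, which closes a negative feedback loop. In colon cancer cells, CDKN1A and MDM2 are among the best-known readouts of p53 activity.

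The half-site pairs that could be found near the annotated starts are shown first, because they are the sequence feature by which p53 recognises a target. RefSeq promoter sequences on GRCh38.p14, which run from 250 bases before to 50 bases after a gene's start, were at hand for 27 of the 34 genes. A pair of adjacent half-sites of 10 bases each, without a spacer, with at most 2 mismatches to the p53 consensus and with the fixed C and G of each half-site kept, was searched on both strands. It was found in 4 of the 27 (14.8%), and in 34 of the 9226 genes with fold changes and a promoter sequence (0.369%), members included. The 27 were chosen as known p53 targets, so their larger share follows from the choice and is not a result of these data. The 4 matches are given 5′ to 3′ with the central 4 bases of each half-site in capitals.
MDM2: ggtCAAGttcagaCACGttc
DDB2: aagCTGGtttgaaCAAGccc
FAS: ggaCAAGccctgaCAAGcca
AEN: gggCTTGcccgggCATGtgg
The MDM2 match lies at chr12:68808923-68808942 on the plus strand, and its first base is at -94 from a start inside the gene, the one that RefSeq lists. The DDB2 match, at chr11:47214969-47214988 on the plus strand, starts at -5 and so spans the start that RefSeq lists. Those of FAS (chr10:88991309-88991328) and AEN (chr15:88621306-88621325), both on the plus strand, start at -122 and -34 from their RefSeq starts. By the GENCODE gene positions, DDB2 begins at 47214465, FAS at 88990582 and AEN at 88621296. By those positions the matches of these genes also lie inside the gene. Only the DDB2 sequence had a single mismatch, and the other 3 had 2. A single half-site without mismatch was present in 7 of the 27 promoters (25.9%) and in 7.51% of those of all genes with fold changes. These are matches of letters in a short window. Absence of a match there says nothing of p53 binding, since many known elements lie farther from the start.

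Of the 34 genes, 32 had a mean of the 3 group counts of at least 50 and received fold changes, as did 11907 symbols in all. The other 2 were SPATA18, a gene of mitochondrial quality control, with mean counts of 1 (NC), 4 (GAS5) and 0.5 (siYAP), and EDA2R, a receptor of the tumour necrosis factor family, with 1.5, 1.5 and 1. Both were close to undetected in every group, and no fold is given for them. Among the 32, levels per transcript length in NC ran from 3.995 FPKM (fragments scaled by transcript length and library size) for SESN1 to 311 FPKM for KITLG. Next below KITLG were GDF15 at 276, CDKN1A at 158 and MDM2 at 79.4 FPKM. GDF15 was the member with the highest level in siYAP, at 332 FPKM, where KITLG stood at 235 FPKM. In GAS5, KITLG led with 271 FPKM, and CDKN1A (201 FPKM) stood above GDF15 (186 FPKM). These are group means without a spread, so neighbours in this order may change places between cultures.

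**Figure D1:**
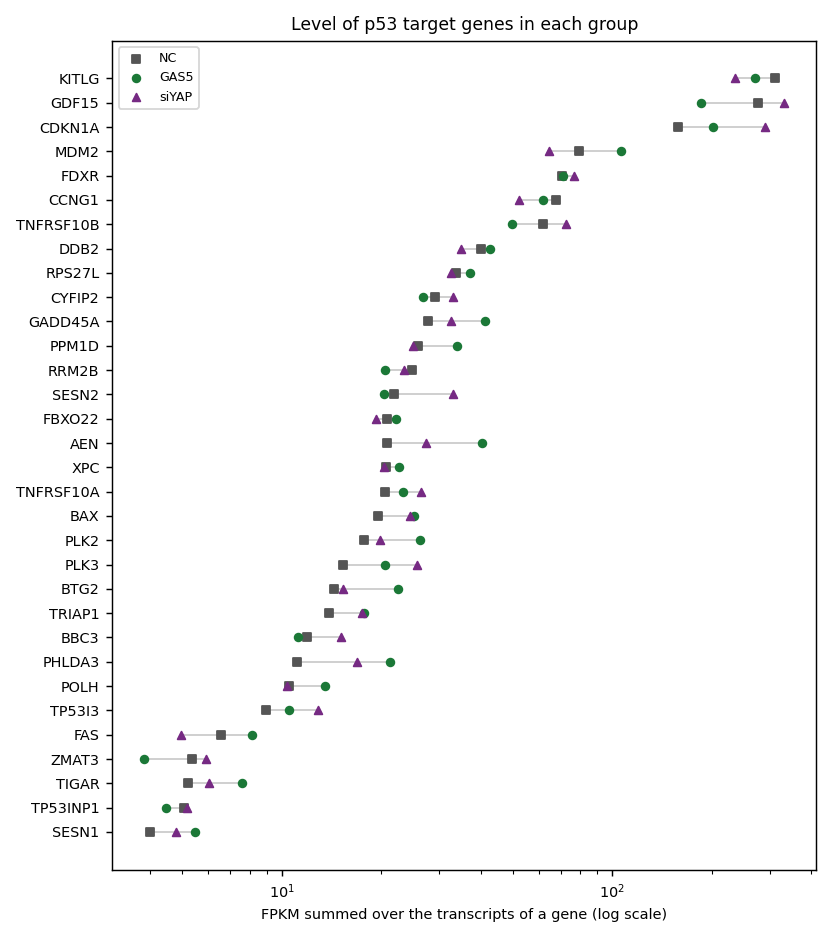
FPKM summed over the transcripts of each of the 32 genes (log axis) in NC, GAS5 and siYAP, ordered by the level in NC. Each point is the authors' mean of a group and the grey line joins the lowest and highest group. The genes run from SESN1 at 3.995 FPKM to KITLG at 311 FPKM in NC, and for most genes the 3 points lie close together on this scale.

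The targeted gene YAP1 had 3480, 2889 and 1564 scaled counts in NC, GAS5 and siYAP, a log2 difference of -1.15 in siYAP (-1.24 to -1.07), which goes with the label, and of -0.27 in GAS5. GAS5 RNA, being non-coding, is not among these mRNA transcripts and was not analysed here. The depth behind the values was 27206123 counts for the NC mean, 25521577 for GAS5 and 26298036 for siYAP. Of 8 epithelial markers 7 were at 1 FPKM or more in every group, with summed levels of 3375, 3811 and 4492 FPKM, and of 5 leukocyte and 4 endothelial markers none was. Of 6 fibroblast markers only COL1A1 was, and the list summed to 2.31 to 3.40 FPKM.

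In GAS5 against NC, 6 targets were higher by 0.53 to 0.96 on the log2 scale: AEN, PHLDA3, BTG2, PLK2, TIGAR and GADD45A. They stand for nuclease activity in apoptosis, restraint of AKT, growth arrest and control of glycolysis. GDF15, a secreted stress cytokine, was the 1 member lower by at least 0.5. Members higher by at least 0.5 were 6 of 32 (18.8%), where the share of all 11907 genes was 3.58%, and members lower by at least 0.5 were 1 of 32 (3.13%), where it was 3.48%. No member differed by 1 or more in either direction, as 0.781% of all genes did upward and 0.277% downward. The median over the 32 members was 0.16, and -0.01 over all genes. Values above 0 were held by 23 of the 32, and by 48.3% of all genes. The nearest values on each side of the 0.5 line were 0.45 for PLK3 and 0.53 for GADD45A.

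In siYAP against NC, CDKN1A led, at 0.94, followed by PLK3 (0.81), SESN2 (0.65), PHLDA3 (0.60) and TP53I3 (0.56). These genes encode a cyclin-dependent kinase inhibitor, a stress kinase, an inhibitor of mTORC1, an inhibitor of AKT and an oxidoreductase. Members higher by at least 0.5 were 5 of 32 (15.6%), against 5.69% of all genes, and no member was lower by 0.5, as 5.79% of all genes were. Again no member differed by 1 or more, where 0.353% of all genes did upward and 0.42% downward. The median was 0.23 over the members and 0.02 over all genes, and 26 of the 32 members lay above 0, where 53% of all genes did. With total count scaling 21 of the 32 did, and the share of all genes at that scaling was not computed. The lowest member was KITLG at -0.35. When each gene was read from its most abundant transcript alone, 3 members were lower by at least 0.5 in siYAP and 2 in GAS5. At that setting 6 were higher by at least 0.5 in siYAP and 7 in GAS5. The shares of all genes were not computed there, so these counts have no background beside them. Around the 0.5 line, BBC3 at 0.44 was the nearest below and TP53I3 the nearest above.

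**Figure D2:**
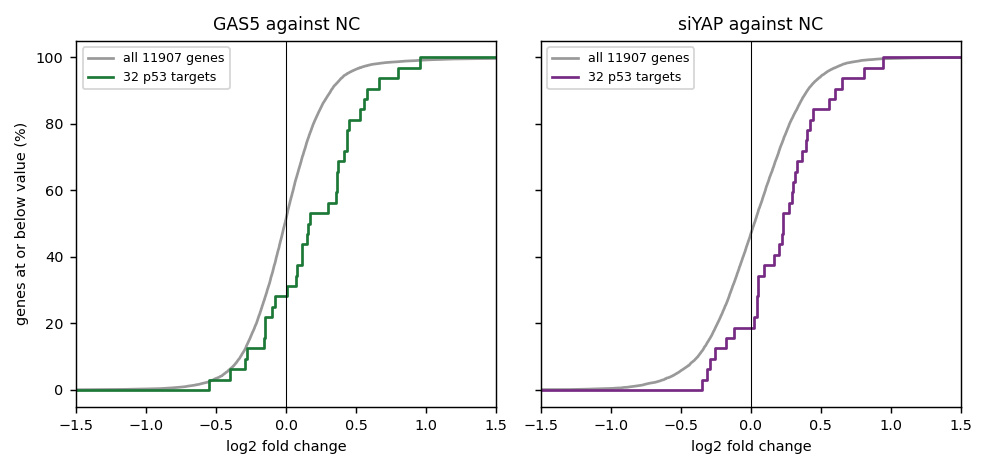
Share of genes (%) at or below each log2 fold change, for the p53 targets (coloured steps, 32 genes) and for all 11907 genes (grey), in GAS5 against NC (left) and siYAP against NC (right). The step curves lie to the right of the grey curves over most of the range, with medians of 0.16 and 0.23, where all genes have -0.01 and 0.02.

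**Figure D3:**
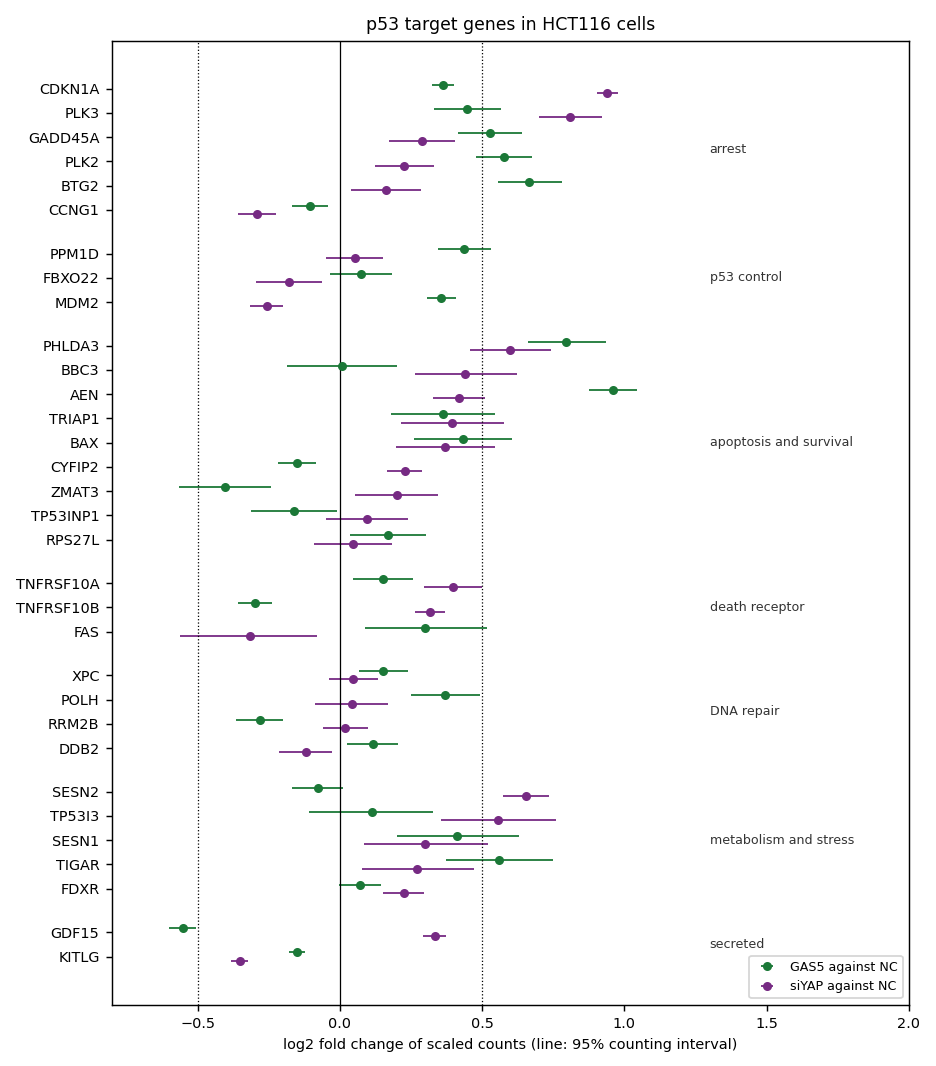
Log2 fold change of each of the 32 genes in GAS5 (green) and siYAP (purple) against NC, grouped by role. Horizontal lines are 95% counting intervals and do not cover the spread between cultures, and dotted lines mark 0.5 in each direction. AEN lies farthest to the right in GAS5 (0.96) and CDKN1A in siYAP (0.94), and GDF15 lies left of -0.5 in GAS5 only.

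Among the arrest genes, CDKN1A (chr6:36676460-36687339, plus strand, GRCh38) encodes p21, the inhibitor of cyclin-dependent kinases through which p53 halts the cell cycle. It had 9553 counts in NC, and 12284 (GAS5) and 18338 (siYAP) on the same scale. Its log2 value lay above NC by 0.36 in GAS5 (0.32 to 0.40) and 0.94 in siYAP (0.90 to 0.98), so that p21 RNA was the highest in siYAP and lay between in GAS5. By size of difference CDKN1A ranked 51 from the top of the 11907 genes in siYAP and 923 in GAS5.

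BTG2, an antiproliferative partner of the mRNA deadenylase complex, had 1081 counts (NC), 1715 (GAS5) and 1209 (siYAP) on the NC scale, and differed by 0.67 in GAS5 (0.55 to 0.78) and 0.16 in siYAP (0.04 to 0.28). PLK2, a polo-like kinase of the stress response, had 1459, 2174 and 1707 counts, with differences of 0.58 (0.48 to 0.67) and 0.23 (0.12 to 0.33). In both genes the GAS5 group stood apart and siYAP lay near NC. GADD45A, a stress sensor that binds PCNA and p21, followed the same order with 1134, 1635 and 1387 counts, or 0.53 (0.42 to 0.64) in GAS5 and 0.29 (0.17 to 0.41) in siYAP. PLK3, the related kinase, had 1058, 1443 and 1856 counts, a difference of 0.45 (0.33 to 0.57) in GAS5 and 0.81 (0.70 to 0.92) in siYAP. Like CDKN1A, PLK3 was highest in siYAP. CCNG1, cyclin G1, which recruits a phosphatase to MDM2, was the arrest gene that lay below NC in both groups, at -0.10 in GAS5 and -0.29 in siYAP.

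Of the genes that act back on p53, MDM2 (chr12:68808176-68850686, plus strand) had 5491 counts in NC, against scaled counts of 7032 in GAS5 and 4598 in siYAP. It was higher in GAS5 by 0.36 (0.30 to 0.41) and lay at -0.26 in siYAP (-0.31 to -0.20). CDKN1A and MDM2 therefore had equal differences in GAS5 to 2 decimals and opposite signs in siYAP. PPM1D, the phosphatase WIP1 that removes activating phosphates from p53, was at 0.44 in GAS5 and 0.05 in siYAP. FBXO22, the substrate receptor of a ligase for methylated p53, was at 0.07 and -0.18. MDM4, the MDM2 relative that masks the p53 activation domain and is no member of the list, was at -0.25 in GAS5 and -0.10 in siYAP.

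Apoptosis and survival genes were led by AEN (chr15:88621296-88632282, plus strand), a nuclease that takes part in DNA fragmentation. AEN had 1796 counts (NC), 3493 (GAS5) and 2402 (siYAP), and the log2 difference was 0.96 in GAS5 (0.88 to 1.04) and 0.42 in siYAP (0.33 to 0.51). PHLDA3 (chr1:201464383-201469237, minus strand), which competes with AKT for membrane lipids, had 707, 1228 and 1071 counts, or 0.80 (0.66 to 0.93) and 0.60 (0.46 to 0.74). PHLDA3 was at 0.5 or more in both groups, which are compared with the same NC values. BAX, the pore-forming effector of the mitochondrial pathway, had 505, 682 and 652 counts, or 0.43 (0.26 to 0.60) and 0.37 (0.20 to 0.54). By its most abundant transcript alone BAX was at 0.61 in GAS5 and 0.18 in siYAP. BBC3, which encodes the BH3-only protein PUMA, had 460, 463 and 625 counts, or 0.01 (-0.18 to 0.20) and 0.44 (0.27 to 0.62). For BBC3 the GAS5 group thus lay at NC within counting error.

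The BBC3 values in both groups depended on which transcripts were read. The 4 transcripts with an Ensembl identifier had 84.4 (NC), 186 (GAS5) and 126 (siYAP) counts, a difference of 1.12 in GAS5 (0.76 to 1.54) and 0.57 in siYAP (0.18 to 1.01). The 4 transcripts that had been assembled from the reads had 376, 277 and 499 counts, or -0.44 (-0.67 to -0.21) and 0.41 (0.21 to 0.61). So the GAS5 value had opposite signs in the annotated and the assembled transcripts, and the siYAP value was positive in both. By the most abundant transcript alone, which is an assembled one, BBC3 was at -0.92 in GAS5 and -0.57 in siYAP. How reads were divided between overlapping transcripts was estimated by the authors' counting, which adds an error that the counting intervals do not hold.

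Each of the other members with a role in apoptosis differed by less than 0.5 in both groups. TRIAP1, an inhibitor of caspase activation, was at 0.36 in GAS5 and 0.39 in siYAP, and RPS27L, a ribosomal protein paralogue that shares sequence with RPS27, was at 0.17 and 0.05. ZMAT3, an RNA-binding regulator of splicing, was at -0.40 in GAS5 and 0.20 in siYAP. TP53INP1, a cofactor of p53 in stress and autophagy, was at -0.16 and 0.10, and CYFIP2, a component of the actin-regulating WAVE complex, at -0.15 and 0.23. These last 3 lay below NC in GAS5 and above it in siYAP, although the interval of TP53INP1 in siYAP reached 0 (-0.05 to 0.24).

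The death receptors differed by less than 0.5 in both groups. TNFRSF10A, the TRAIL receptor DR4, was at 0.15 in GAS5 and 0.40 in siYAP, and TNFRSF10B, the TRAIL receptor DR5, at -0.30 and 0.32. FAS, the receptor for FAS ligand, was at 0.30 in GAS5 and -0.32 in siYAP. TNFRSF10B and FAS thus held opposite signs to each other in each group. Among the DNA repair genes, POLH, the translesion polymerase eta, was at 0.37 and 0.04, XPC, the damage sensor of nucleotide excision repair, at 0.15 and 0.05, DDB2, which recognises ultraviolet lesions, at 0.12 and -0.12, and RRM2B, a ribonucleotide reductase subunit, at -0.28 and 0.02. None of the 4 DNA repair genes differed by 0.5 in either comparison, and their medians were 0.13 in GAS5 and 0.03 in siYAP.

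Of the metabolic and stress genes, SESN2, a leucine sensor that restrains mTORC1, had 2096 (NC), 1985 (GAS5) and 3297 (siYAP) scaled counts. Its log2 difference was -0.08 in GAS5 (-0.17 to 0.01) and 0.65 in siYAP (0.57 to 0.73), so only siYAP stood apart. TP53I3, an oxidoreductase also known as PIG3, had 348, 376 and 512 counts, or 0.11 (-0.11 to 0.33) and 0.56 (0.35 to 0.76), and was likewise highest in siYAP. By its most abundant transcript alone TP53I3 was at -0.19 in GAS5. TIGAR, a phosphatase that lowers glycolytic flux, had 403, 594 and 486 counts, or 0.56 (0.37 to 0.75) and 0.27 (0.08 to 0.47), with the GAS5 group highest. SESN1, the paralogue of SESN2, was at 0.41 and 0.30, and FDXR, the mitochondrial ferredoxin reductase, at 0.07 and 0.22.

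Both secreted members were abundant. GDF15 (chr19:18374731-18389176, plus strand), a stress cytokine of the TGF-beta family, had 9158 (NC), 6247 (GAS5) and 11535 (siYAP) scaled counts. The log2 difference was -0.55 in GAS5 (-0.60 to -0.50) and 0.33 in siYAP (0.29 to 0.37), so the treated groups lay on opposite sides of NC. KITLG, the ligand of the receptor KIT, was at -0.15 in GAS5 and -0.35 in siYAP and was below NC in both.

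GDF15, SESN2 and TNFRSF10B are also known as targets of the integrated stress response, and FAS as responsive to interferon. Genes of both programmes also differed from NC. Of 16 integrated stress response genes with fold changes none was above 0 in GAS5 and 9 were lower by at least 0.5, with a median of -0.60, while in siYAP the median was -0.05. Of 11 interferon-stimulated genes all 11 were higher by at least 1 in GAS5, with a median of 3.08, and the median in siYAP was 0.34. The largest differences in GAS5 were those of OAS1 (4.92), IFI27 (4.20) and IFIT1 (3.91). The part of either programme in the members' values was not tested. Without those 4 members, the median of the other 28 was 0.26 in GAS5 and 0.23 in siYAP. This comparison was added after the values were seen. In GAS5 the 4 were at -0.55 (GDF15), -0.30 (TNFRSF10B), -0.08 (SESN2) and 0.30 (FAS). Leaving them out therefore raises the GAS5 median by itself, and GDF15 was the only member lower by at least 0.5.

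MDM2 is transcribed from a first start and from an internal start, and the internal one is known as the p53-responsive promoter. The MDM2 sequence printed above lies just before this internal start. The 15 annotated transcripts that begin at the internal start had 1630 (NC), 2326 (GAS5) and 1332 (siYAP) scaled counts. Their log2 difference was 0.51 in GAS5 (0.42 to 0.61) and -0.29 in siYAP (-0.40 to -0.18). The 4 transcripts from the first start had 3715, 3820 and 3022 counts, or 0.04 (-0.03 to 0.11) and -0.30 (-0.37 to -0.23). In GAS5, therefore, the internal-start sum was higher than in NC and the first-start sum was at NC within counting error. In siYAP both sums were lower by a like amount. Single transcripts of a start did not move alike. The most abundant internal-start transcript was at 0.10 in GAS5 and -0.64 in siYAP, and another was at 0.93 and 1.10. Among the less abundant first-start transcripts, values in GAS5 included 0.53 and -1.68. A further 2 MDM2 transcripts assembled from the reads had 146, 886 and 244 counts, a difference of 2.59 in GAS5 (2.34 to 2.86) and 0.74 in siYAP (0.43 to 1.05), and with annotated transcripts alone MDM2 was at 0.20 and -0.30. By its most abundant transcript alone MDM2 was at 0.08 in GAS5.

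CDKN1A also has an upstream start in the annotation. The 3 transcripts from the main start had 9541, 12284 and 18118 scaled counts, and differences of 0.36 in GAS5 and 0.93 in siYAP. The 2 from the upstream start had 12 counts in NC and 220 in siYAP, or 3.99 (3.36 to 5.17), and were listed at 0 in GAS5. Upstream transcripts were thus a small part of CDKN1A RNA in every group, and the difference of the gene in siYAP was carried by the main start. The split by start was made after the values were seen and rests on the authors' division of reads between transcripts that share most of their exons.

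**Figure D4:**
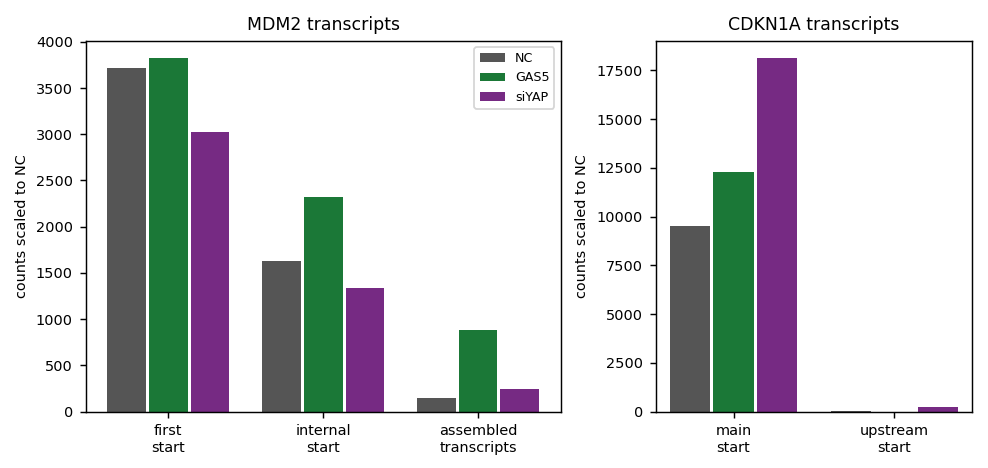
Counts scaled to NC (linear axis from 0) of MDM2 transcripts grouped by annotated start or as assembled from the reads (left), and of CDKN1A transcripts grouped by annotated start (right). Bars are group means without a spread. The MDM2 internal-start bar is highest in GAS5 (2326, where NC has 1630), the first-start bars of NC and GAS5 are nearly level (3715 and 3820), and the upstream-start bars of CDKN1A are barely visible beside the main start.

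Other genes of the pathway were taken from lists chosen by what is known of them, again with earlier results of these data known. Of 80 further p53 targets, 74 received fold changes. In GAS5, 9 of the 74 (12.2%) were higher by at least 0.5 and 3 (4.05%) lower, where 3.58% and 3.48% of all genes were, and the median was 0.06. In siYAP 11 (14.9%) were higher and 3 (4.05%) lower, where 5.69% and 5.79% of all genes were, and the median was 0.21, with 59 of 74 above 0 where 53% of all genes were. Past 1 in GAS5 were ATF3 (1.37), a stress transcription factor, TLR3 (1.22), a sensor of double-stranded RNA, and ZNF79 (1.20), a zinc-finger protein, and in siYAP none of the 74 was. ATF3 is also known as a target of the integrated stress response and TLR3 as interferon-responsive. Of 30 regulators of p53, such as ligases, deubiquitinases and kinases, 29 received fold changes, and their medians were 0.00 in GAS5 and -0.02 in siYAP. Among these regulators only BRD7, a chromatin-binding cofactor of p53, passed 0.5 in either comparison, at -0.51 in siYAP.

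Cell cycle genes that the DREAM repressor complex holds down, which lies downstream of p21, gave the median farthest from 0 of these p53 lists in siYAP. Of 24 such genes, 10 (41.7%) were lower by at least 0.5 in siYAP, where 5.79% of all genes were, and none was higher, with 1 of 24 above 0 and a median of -0.41. CENPF, a kinetochore protein, was the lowest at -1.0, from 9714 scaled counts in NC to 4846 in siYAP. In GAS5 the median was 0.13, 2 of the 24 were higher by at least 0.5 and none was lower, and CENPF was at -0.39. CDKN1A was higher than NC in both groups, by 0.36 in GAS5 and 0.94 in siYAP, and the DREAM list was below NC in siYAP alone. Whether p21 has a part in these values was not tested, and in bulk RNA fewer cycling cells and less RNA of these genes per cell cannot be told apart.

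**Figure D5:**
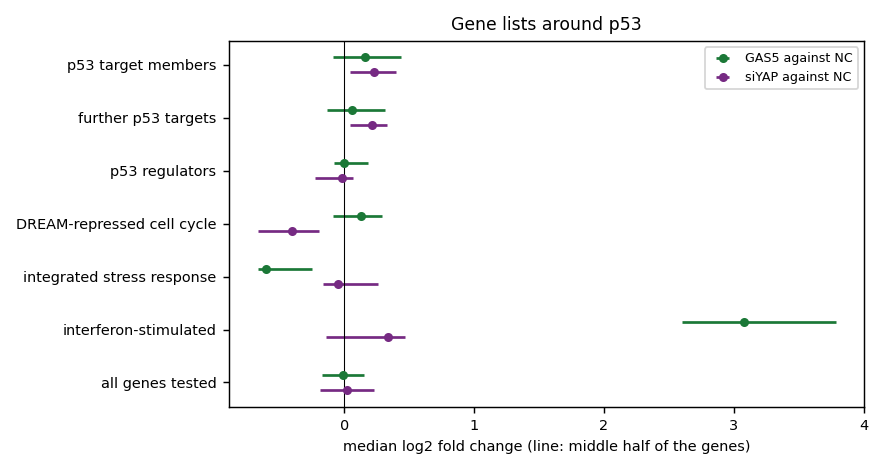
Median log2 fold change of each gene list in GAS5 (green) and siYAP (purple) against NC; lines run from the lower to the upper quartile of a list. The p53 target members and the further p53 targets are at 0.16 and 0.06 in GAS5 and at 0.23 and 0.21 in siYAP. The interferon-stimulated list is at 3.08 in GAS5, the integrated stress response list is at -0.60 in GAS5, and the DREAM list is at -0.41 in siYAP.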

How the data were processed

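Strand-specific libraries were sequenced on an Illumina platform, and TopHat2 2.1.1 is named in the submitters' processing notes. The counting tool, genome build and annotation are not given in the sources used here. The deposited tables hold expected counts (estimated counts) per mRNA transcript, which the authors averaged over the 2 libraries of a group, and FPKM, which the authors scaled by transcript length and library size and averaged likewise, with 0 written as 0.001. The authors' columns of log2 fold change, p-value and FDR were not used.

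The 92866 transcripts were joined by identifier and summed by symbol, read from the siYAP table because 212 symbols differ between the tables. Transcripts without a symbol (339, with 0.2094% of counts) were left out of the sums. Group means were scaled by TMM over transcripts kept by filterByExpr with a minimum count of 10 (edgeR 4.0.16, R 4.3.3): 41340 transcripts for GAS5 against NC and 40876 for siYAP against NC. Counts printed as scaled are on the NC scale. Ratios used a prior count of 2 and needed a mean of the 3 groups of at least 50. Counting intervals (95%, Clopper-Pearson, scipy 1.17.1) treat a mean as a count and had half-widths of 0.03 to 0.24 for the members. Steps were run in Python 3.11.15 and tested on simulated data. The planned edgeR quasi-likelihood test needs libraries and was not run. Gene positions are those of GENCODE 29 on GRCh38, in which the Ensembl identifiers were matched by name.

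Members with 0.5 or more in either comparison, CDKN1A, MDM2, BBC3 and BAX are given in full, other members by 1 value per comparison, and genes of other lists where they reached 1, besides MDM4 and YAP1. A further gene named by that rule is not reported here. BRD7, COL1A1 and the transcript groups of MDM2, CDKN1A, BBC3 and KITLG were picked with their values in view. The members and lists were chosen with earlier results of these data known. Nothing in the labels says that the 2 libraries of a group came from separate cultures.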

Additional observations from a re-analysis of the deposited data

How the results depend on the processing

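Under DESeq2 1.42.0 size factors, TMM on gene sums, total count scaling, a prior count of 0.5, the ratio of summed FPKM (pseudocount 0.1), other filters on low counts, Ensembl transcripts alone, the most abundant transcript alone and the symbols of the GAS5 table, no value of 0.5 or more among the members given in full changed sign, and 108 of 113 summary values stayed within their limits. Under these settings the median of the members ran from 0.14 to 0.21 in GAS5 and from 0.16 to 0.23 in siYAP. It was 0.26 in GAS5 when the 4 members shared with the stress and interferon responses were left out. The 113 summary values include that removal and the search with at most 1 mismatch. With the most abundant transcript alone, 2 members were lower by at least 0.5 in GAS5 and 3 in siYAP, without a share of all genes at that setting. Without the 4 members shared with the stress and interferon responses, the number lower by at least 0.5 in gene sums was 0 in GAS5. GDF15, the only such member, was among the 4. By the ratio of summed FPKM, the DREAM median in siYAP was -0.50. With at most 1 mismatch, 1 promoter held a p53 element. The cause of these differences was not tested. Of the gene values, 265 of 280 stayed within their limits, and 5 had another sign. Those outside their limits included CDKN1A in siYAP, at 0.87 with total count scaling. By its most abundant transcript BBC3 was at -0.92 in GAS5 and -0.57 in siYAP. Genes of the other lists and transcript groups were not recomputed one by one. No paired analysis was possible because each group is given as 1 mean. For the same reason the edgeR and DESeq2 tests, the replicate block and leaving out a library were not run. The wider windows planned around the starts were not searched, since only promoter sequences of 300 bases were used. Depth limits the low genes most: the widest member interval was 0.24 to either side.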

Other observations

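Single transcripts of the members held larger differences than their genes. The members have 160 transcripts in the tables, of which 141 carry an Ensembl identifier, 19 in 10 members were assembled from the reads, and 23 were listed at 0 in every group. In 5 transcripts 1 group at least was listed at 0 and another had 50 mean counts or more. An annotated MDM2 transcript had unscaled mean counts of 242 (NC) and 471 (GAS5) and no count in siYAP, where it is listed at 0. An assembled BBC3 transcript was listed at 0 in NC and GAS5 and had 157 in siYAP, and an assembled AEN transcript was listed at 0 in NC and siYAP and had 55.6 in GAS5. An annotated CDKN1A transcript had 12 in NC, was listed at 0 in GAS5 and had 165 in siYAP, and one of RRM2B had 4.03, 0 and 64.9. For CDKN1A, AEN and RRM2B the most abundant transcript held 93.1%, 98.6% and 93.7% of the counts of the gene, so these transcripts were a small part of it.

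For KITLG, the member with the highest FPKM in NC and GAS5, transcripts assembled from the reads made up about as much RNA as the annotated ones. The 3 assembled transcripts had 11431 (NC), 10675 (GAS5) and 8689 (siYAP) counts on the NC scale, and log2 differences of -0.10 (95% counting interval -0.14 to -0.06) and -0.40 (-0.44 to -0.35). The 4 annotated transcripts had 10771, 9303 and 8707 counts, with differences of -0.21 (-0.25 to -0.17) and -0.31 (-0.35 to -0.27). Both classes were below NC in both groups.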
